A study of Homo sapiens with 4 samples.

Results

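The clustered protocadherin promoters of chromosome 5q31 were described here as the 55 promoter design regions of the array that start in a window of chromosome 5 around the 3 gene clusters, from 140143859 to 140849491, out of 18008 design regions with at least 5 probes on the whole array. The members were taken by position, in a window chosen with earlier results of these data known. All of them had between 13 and 27 probes, so the minimum of 5 probes left none out. Together they hold 1192 of the 386230 probes. Coordinates are those of the files and were taken as hg18, which the files do not state. The nearest design regions outside the window, at 140058015 to 140060715 and at 140978191 to 140980891, had mean log2 ratios of 0.15 ± 0.21 and -0.21 ± 0.20 (SD, n = 4), and neither was called.

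The study measured binding of an HA-tagged transcription factor in HEK293 cells, a human embryonic kidney line, by chromatin immunoprecipitation on promoter arrays. The stable HEK293 line expresses the factor when tetracycline is absent. Each of the 4 arrays compared anti-HA precipitated DNA of cells kept 48 h without tetracycline (induced, Cy5) with anti-HA precipitated DNA of the same line kept with tetracycline (uninduced control, Cy3), so that both channels carry the transgene and the same antibody. The induced and uninduced preparations carried the numbers 4 and 3 in array 2, 10 and 7 in array 3, and 13 and 9 in array 4, while array 1 has none. Arrays 1 and 2 belong to array series N39 and arrays 3 and 4 to series N44 by their file names. Whether the preparations are independent cultures, and how many clones the line rests on, is not stated in the labels, so each p-value reflects array-to-array spread that may be technical. A log2 ratio above 0 means more precipitated DNA from induced cells, relative to the median probe of that array.

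Clustered protocadherins are cadherin-like adhesion proteins of the cell surface that are best known in neurons, where each cell uses a small choice of them as an identity tag. Every variable exon of the alpha and gamma families, and every beta gene, has a promoter of its own, and alpha and gamma variable exons are spliced to constant exons shared within the family. Most of these promoters carry a conserved sequence element and are bound by CTCF and cohesin when active, and the clusters are known to be methylated and silent over long distances in Wilms tumour, a tumour of the kidney.

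RefSeq lists 15 protein-coding alpha, 16 beta and 22 gamma genes on GRCh38, and promoter sequences of 47 of these 53 genes were at hand, all on the plus strand; PCDHA3, PCDHA13, PCDHB6, PCDHB11, PCDHGA12 and PCDHGC5 had no entry. The GRCh38 coordinates were not transferred to the array, and no design region was assigned to a gene. The next sequences show what the promoters of a family share, as background to the levels of the stretches below. Each is the 250 bases before the start site of the first gene of its family, along the chromosome, that holds the family's motif, and the motif is in capitals.
PCDHA1 (chr5:140785890-140786139, GRCh38.p14, plus strand): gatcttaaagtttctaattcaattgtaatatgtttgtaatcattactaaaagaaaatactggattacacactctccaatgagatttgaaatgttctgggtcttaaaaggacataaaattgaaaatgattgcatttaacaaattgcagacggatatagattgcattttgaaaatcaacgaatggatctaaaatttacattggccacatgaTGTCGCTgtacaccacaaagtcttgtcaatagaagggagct
PCDHB2 (chr5:141094365-141094614, GRCh38.p14, plus strand): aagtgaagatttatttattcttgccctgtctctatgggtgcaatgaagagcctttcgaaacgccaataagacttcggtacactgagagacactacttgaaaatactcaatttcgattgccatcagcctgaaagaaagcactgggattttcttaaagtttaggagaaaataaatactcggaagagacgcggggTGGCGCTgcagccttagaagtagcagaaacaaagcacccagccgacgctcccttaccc
PCDHGA1 (chr5:141330264-141330513, GRCh38.p14, plus strand): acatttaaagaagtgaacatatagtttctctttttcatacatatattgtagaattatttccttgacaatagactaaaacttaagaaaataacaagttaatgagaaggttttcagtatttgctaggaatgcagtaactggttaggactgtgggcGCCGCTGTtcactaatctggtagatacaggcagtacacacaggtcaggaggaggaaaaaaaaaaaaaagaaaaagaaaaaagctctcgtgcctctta

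The motifs were picked after the sequences had been read and were searched on both strands. All 3 hold the letters CGCT, and the first and the second differ by a single base. TGTCGCT stood in 10 of 13 alpha promoters, 1 of 14 beta and 3 of 20 gamma promoters, and in 1.31% of all 27305 promoters of the table. TGGCGCT stood in 12 of 14 beta promoters, no alpha promoter and 3 of 20 gamma promoters, against 3.14% of all promoters. GCCGCTGT stood in 11 of 20 gamma promoters and in no alpha or beta promoter, against 1.19% of all. At least 1 of these motifs was present in 36 of the 47 promoters and in 5.5% of all promoters.

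Of the 55 design regions, 4 were higher and 12 were lower in induced cells, and 39 did not pass the test (limma, adjusted p threshold 0.05 over all 18008 regions, n = 4 arrays). Over the whole array 13.7% of design regions were called higher and 13.5% lower, so the members called higher (7.27%) were fewer and those called lower (21.8%) more than this background. The median of the 55 region means was -0.098 on the log2 scale, against -0.003 over all design regions, and the region means ranged from -0.54 to 0.45. The number of lower calls depended on single arrays, and the background moved too. Without array 2 only 4 members were called lower (7.27%, background 5.15%), and without array 3 there were 24 (43.6%, background 14.4%). Without array 4 a single member was called higher and 8 lower (1.82 and 14.5%, background 6.2 and 4.44%). Without array 1 the counts were 3 higher and 8 lower (5.45 and 14.5%, background 13.1 and 11.1%). The counts of higher members without arrays 2 and 3 were 5 and 3 (background 6.33 and 14.5%). With array weights there were 4 higher and 20 lower (background 19.2 and 20.3%). By a minimum change of 0.5 log2, no member was higher (background 2.54%) and 2 were lower (background 0.894%). The plot of the members by array shows that array 3 gave the highest value of the 4 at 46 regions and array 2 the lowest at 47.

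**Figure D1:**
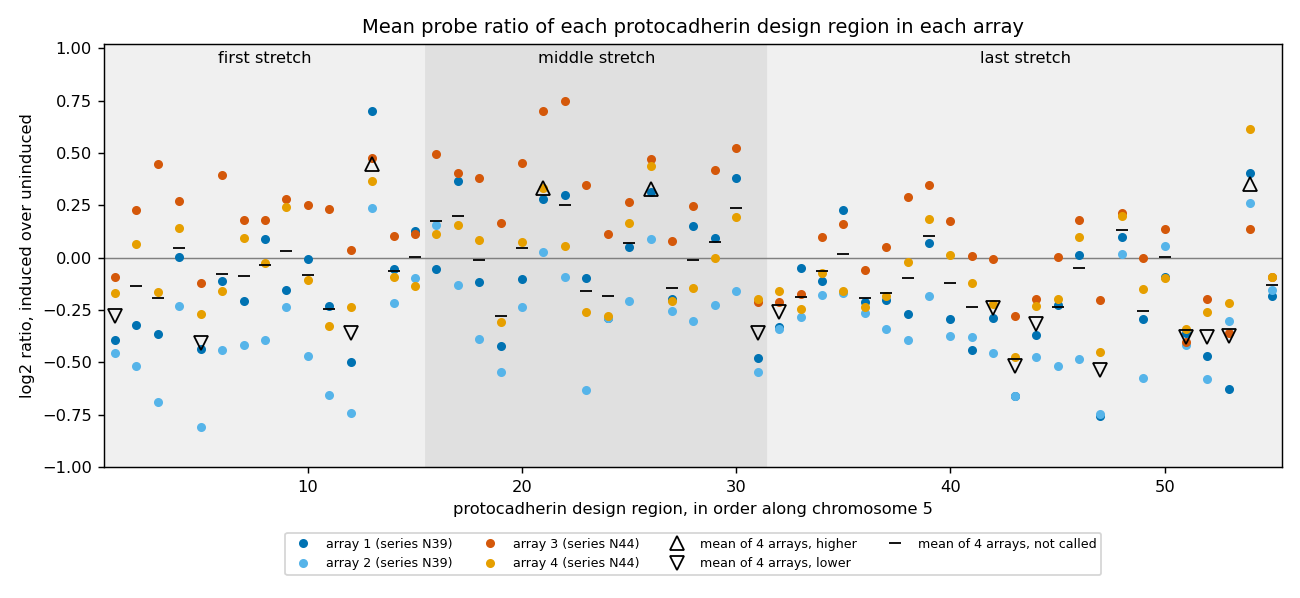
Mean log2 ratio (vertical axis, induced over uninduced) of each of the 55 protocadherin design regions, in order along chromosome 5 (horizontal axis), with 1 point per array and the mean of the 4 arrays as a triangle where called or a dash where not. The 4 regions called higher are scattered over the 3 stretches, array 3 lies above the other arrays at 46 regions, and 8 of the 12 regions called lower lie in the last stretch.

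The level of the whole set differed between arrays more than the level of all design regions or of the nearby design regions did. The median of the 55 regions was -0.15, -0.34, 0.17 and -0.12 in arrays 1 to 4, a mean of -0.11 ± 0.21 (SD, n = 4). Arrays 1, 2 and 4 were below 0 and array 3 above it, so no common direction was present. The medians over all design regions lay between -0.018 and -0.003. The 81 design regions within 5 Mb on either side of the window had medians of 0.06, -0.004, -0.009 and -0.001. The protocadherin median minus that of these neighbours was -0.22, -0.34, 0.18 and -0.12, a mean of -0.13 ± 0.22, which is within the spread between arrays. Within series N39 the difference averaged -0.28 and within series N44 it averaged 0.03. Without array 3 it was -0.23, and without array 2 it was -0.054.

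Probes of the protocadherin regions were longer, with a median of the region means of 55.0 bases, against 51.8 over all regions and 51.3 in the neighbours. On isothermal arrays longer probes cover sequence poorer in G and C. Over all 18008 regions, Pearson's r of the region ratio with the mean probe length was -0.24, -0.10, 0.44 and 0.06 in arrays 1 to 4, and over the 55 members it was 0.17, -0.10, 0.49 and 0.18; regions are no independent replicates, and no p is given. An r within the members does not set the sign of their median. After the mean of each probe length was subtracted on each array, the protocadherin medians were -0.07, -0.26, 0.08 and -0.10, a spread of 0.14 instead of 0.21. The calls then numbered 6 higher and 16 lower (background 16.3 and 18.1%), and included the 4 higher and 12 lower regions of the ratios before subtraction. How far probe length contributes to the level of the set or to each member's ratio was not tested.

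**Figure D2:**
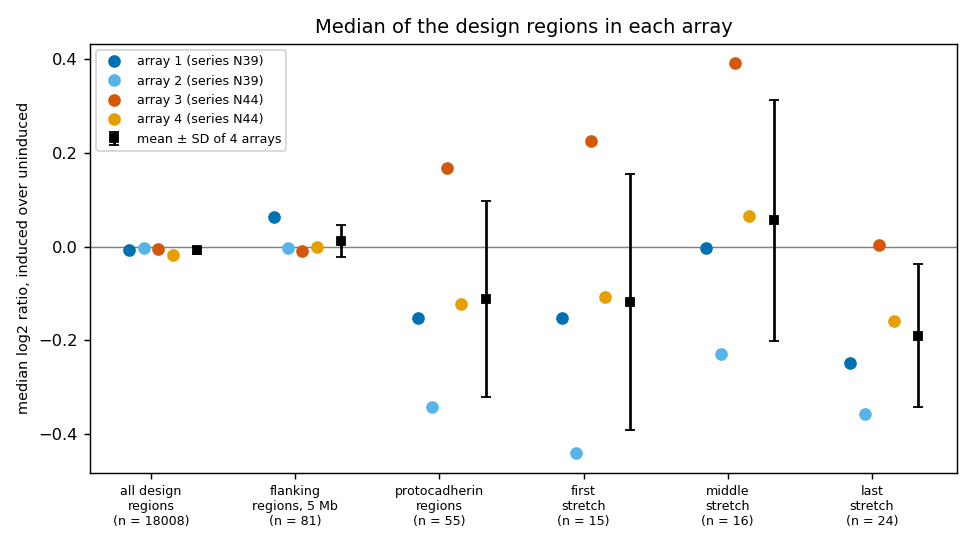
Median log2 ratio (vertical axis) of all design regions, of the neighbours within 5 Mb, of the 55 protocadherin regions and of their 3 stretches in each array, with the mean and SD of the 4 arrays as a square with bars. The 4 arrays lie together for all regions and for the neighbours, while the protocadherin medians reach from -0.34 in array 2 to 0.17 in array 3.

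The order of the regions among themselves was shared by the arrays even where the level was not. Across the 55 members the array pairs had a median Pearson r of 0.72 (0.45 to 0.76) and a median Spearman rho of 0.69, against 0.61 and 0.57 across all 18008 regions. The points of a pair share the array design, its probes and their base composition. When the member median of each array was subtracted, the median SD over arrays of a member fell from 0.215 to 0.129. The value for all design regions was 0.145 without such a step. Because the medians came from these same members, the fall is largely built into the step and does not show a shared order. Between the series, 51 of the 55 members had a higher mean in series N44 than in series N39, against 48.3% of all regions. The means were below 0 in series N39 and above 0 in series N44 at 21 members, below 0 in both at 23 and above 0 in both at 10. Among all 18008 regions these numbers were 2300, 6699 and 6457. Series N39 alone called 2 members higher and 22 lower (background 9.82 and 8.86%), and series N44 alone called 5 higher and 3 lower (background 10.7 and 7.1%). Both series called 2 members higher and 3 lower, and none in opposite directions. Calls shared by both series were not counted over all regions, so these numbers have no background. Neighbouring regions of a stretch were not alike, with r = 0.07 over 52 neighbour pairs.

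**Figure D3:**
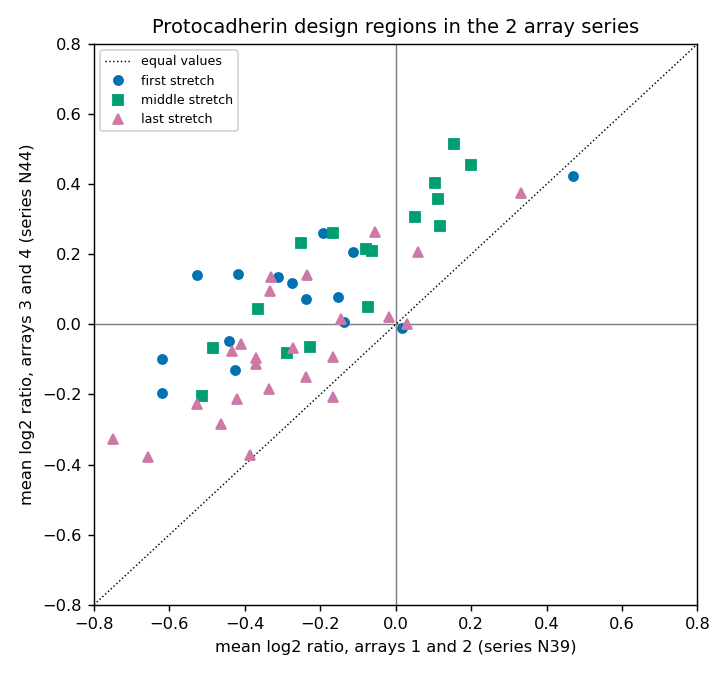
Mean log2 ratio of each protocadherin design region in arrays 1 and 2 (horizontal axis) against arrays 3 and 4 (vertical axis), with symbols by stretch and a dotted line of equal values. Nearly all points lie above the line (51 of 55), and the regions keep a similar order in both series.

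Gaps of more than 50 kb between design regions divided the members into 3 stretches. The first runs from 140143859 to 140327035 with 15 regions, the middle from 140408962 to 140605830 with 16 and the last from 140663296 to 140849491 with 24. The families are known to follow each other in the order alpha, beta and gamma, and the RefSeq counts are 15, 16 and 22. The last stretch thus holds more design regions than RefSeq has gamma genes. As no region was assigned to a gene, some members may be promoters of other genes in the window. The counts of calls include any such members.

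The middle stretch had the highest level in every array. Its medians were -0.003, -0.23, 0.39 and 0.07, those of the first stretch -0.15, -0.44, 0.23 and -0.11, and those of the last stretch -0.25, -0.36, 0.003 and -0.16. The middle minus the first was 0.15, 0.21, 0.17 and 0.17, a mean of 0.18 ± 0.03 (SD, n = 4), positive in all 4 arrays. Against the last stretch it was 0.25 ± 0.11, again positive in all 4. The last and the first stretch were not separated, at -0.07 ± 0.13 with both signs. With probes of a single match the middle minus the first was 0.22 ± 0.07 and the middle minus the last 0.20 ± 0.13, and after subtraction of the probe length means they were 0.18 ± 0.03 and 0.26 ± 0.09. The median of the mean probe lengths was 55.4, 55.3 and 54.4 bases in the first, middle and last stretch. Calls numbered 1 higher and 3 lower in the first, 2 higher and 1 lower in the middle, and 1 higher and 8 lower in the last stretch. The share over all design regions was 13.7% higher and 13.5% lower. For lower calls, 3 of 15 and 8 of 24 lie above this share and 1 of 16 below it, each on few regions.

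The highest member was region 13 of the 55, at 140239837 to 140242537 in the first stretch, with 25 probes. Arrays 1 to 4 gave 0.70, 0.24, 0.48 and 0.37. All lay above 0, the mean was 0.45 ± 0.20, a 1.36-fold higher ratio (adjusted p = 0.0044, limma), and 3.53% of all design regions were higher. Of its 5 bins of 500 bp, 3 were called higher. Its neighbour, region 12 at 140232914 to 140235614, stood at -0.50, -0.74, 0.04 and -0.23. It was below 0 in 3 of 4 arrays and was called lower at -0.36 ± 0.34 (adjusted p = 0.034, limma).

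Region 54, at 140842724 to 140845424 near the end of the last stretch, gave 0.41, 0.26, 0.13 and 0.62. It was above 0 in all arrays, at 0.35 ± 0.21 (adjusted p = 0.013, limma), and its 22 probes all had a single match; without array 4 its adjusted p was 0.10. Region 21, at 140507822 to 140510522 in the middle stretch, gave 0.28, 0.03, 0.70 and 0.33. Array 2 was near 0 there, and the call (0.34 ± 0.28, adjusted p = 0.028, limma) was lost without array 1, 3 or 4. Region 26, at 140549935 to 140552635, gave 0.31, 0.09, 0.47 and 0.44 over 16 probes, and its call (0.33 ± 0.17, adjusted p = 0.014, limma) was lost without array 4. Region 48, at 140765753 to 140768453, was the fifth highest with 1 sign in all arrays, at 0.10, 0.02, 0.21 and 0.20, and did not pass the test (adjusted p = 0.18, limma).

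The lowest member was region 47, at 140760503 to 140763203 in the last stretch, directly before region 48. Arrays 1 to 4 gave -0.76, -0.75, -0.20 and -0.45. The mean was -0.54 ± 0.27, a 1.45-fold lower ratio (adjusted p = 0.0035, limma), 0.639% of all design regions were lower, and 4 of its 5 bins were called lower. Region 43, at 140740450 to 140743150, gave -0.66, -0.66, -0.28 and -0.48, a mean of -0.52 ± 0.18 (adjusted p = 0.0022, limma). In both regions the arrays of series N39 were lower than those of series N44, but all 4 were below 0. These are the members beyond 0.5 log2.

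Region 51, at 140778520 to 140781220, had the smallest spread of all named members. It gave -0.36, -0.42, -0.40 and -0.34, a mean of -0.38 ± 0.03 (adjusted p = 0.0034, limma). Region 52, at 140788141 to 140790841, gave -0.47, -0.58, -0.20 and -0.26, at -0.38 ± 0.18, and region 5, at 140179344 to 140182044 in the first stretch, gave -0.43, -0.81, -0.12 and -0.27, at -0.41 ± 0.29. Their adjusted p values were 0.0082 and 0.015 (limma), and both calls were lost without array 2. The other lower members were regions 1, 12, 31, 32, 42, 44 and 53, with means between -0.37 and -0.24. Region 42 passed narrowly (adjusted p = 0.0498, limma) and missed the threshold with single-match probes (adjusted p = 0.063).

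Bins inside the regions were tested separately, and as means over fewer probes they spread more than region means. The members held 246 bins of 500 bp with at least 3 probes, of which 36 (14.6%) were called higher and 67 (27.2%) lower, against 17.0 and 16.4% of all 77324 bins (limma, adjusted p threshold 0.05). Leaving out array 1, 2, 3 or 4 gave 46, 40, 82 and 51 lower bins (background 10.7, 10.3, 15.4 and 9.84%). The higher bins then numbered 23, 39, 23 and 21 (background 12.6, 11.8, 15.9 and 12.0%). Series N39 alone gave 18 higher and 89 lower bins (background 14.3 and 13.2%), and series N44 alone 32 and 20 (background 8.83 and 6.03%). Bins of 1000 bp gave 23 higher and 40 lower of 162 (background 16.6 and 15.1%). A called lower bin was present in 41 of the 55 regions, a called higher bin in 25, both kinds in 16 and neither in 5. Among all regions the shares were 49.2, 47.7, 18.4 and 21.6%.

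The named bins are the extremes of the 246. The lowest lay in region 45, at 140750966 to 140751418. Arrays 1 to 4 gave -1.37, -2.05, -0.93 and -1.24 over 3 probes, a mean of -1.40 ± 0.47, 2.63-fold lower (adjusted p = 0.00018, limma), while the mean of its whole region was -0.23 and not called. In bins of 1000 bp it was at -0.44 (adjusted p = 0.026, limma), and of the other named bins that of region 51 was at -0.75 and that of region 13 at 0.48. The bin at 140760503 to 140760761, the first of region 47, gave -1.35, -1.36, -1.51 and -0.83, a mean of -1.26 ± 0.30. The bin at 140780120 to 140780474 in region 51 gave -1.502, -1.025, -1.015 and -1.222 over 4 probes, a mean of -1.19 ± 0.23. All 3 were below -0.8 in every array and lie in the last stretch.

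The highest bin lay in region 13, at 140240337 to 140240795. It gave 1.19, 0.66, 0.66 and 0.89 over 5 probes, a mean of 0.85 ± 0.25, 1.8-fold higher (adjusted p = 0.00064, limma). The bin at 140191952 to 140192317 in region 7 gave 0.77, 0.18, 1.10 and 0.86, a mean of 0.73 ± 0.39, in a region whose mean was -0.09. With bins of 1000 bp it was at 0.04 and not called. The bin at 140530226 to 140530483 in region 22 gave 0.51, 0.85, 1.22 and 0.21, a mean of 0.70 ± 0.44. All 6 named bins held only probes with a single match. The named higher bins were smaller in size than the named lower bins, with mean log2 ratios of 0.70 to 0.85 against -1.40 to -1.19.

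**Figure D4:**
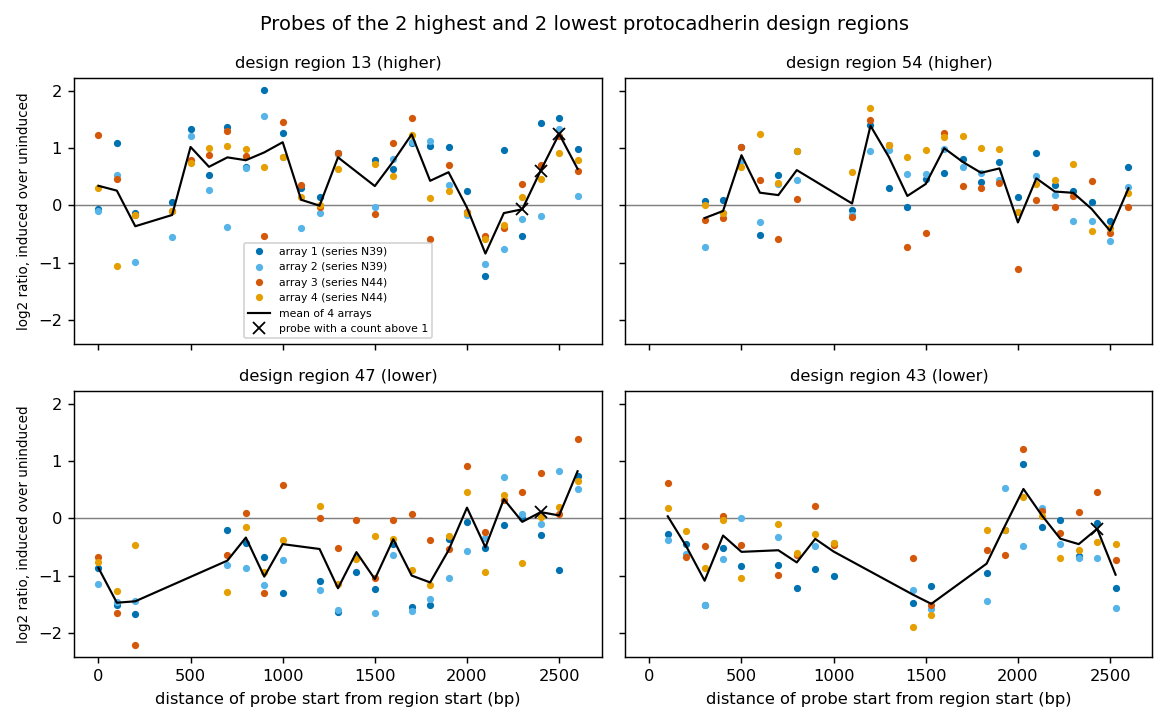
Log2 ratio (vertical axis) of every probe against the distance of its start from the region's start (horizontal axis, bp) in regions 13, 54, 47 and 43, with 1 point per array, the mean of the 4 arrays as a line and a cross at probes with a count above 1. Region 13 is above 0 over most of its length, with a dip near its end, and region 47 is below 0 over most of its length and rises at its end.

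Along the design region the members were not flat. Probes starting 600 to 900 bp from the region start averaged -0.22 ± 0.21 and those starting 2400 to 2700 bp averaged 0.19 ± 0.10. The windows of all 2700 bp design regions stayed between -0.011 and 0.034. Distances ran along the chromosome and regions were not turned by the strand of their gene. The 47 protocadherin promoters at hand all lie on the plus strand. A profile that follows the strand could average out over all regions, so their flat windows cannot show that the members' profile is particular to them. The end window was above 0 in all 4 arrays (0.23, 0.06, 0.29 and 0.16), and the window before it was below 0 in all 4 (-0.09, -0.25, -0.02 and -0.11). A second rise lay at 900 to 1200 bp, at 0.03 ± 0.29, where arrays 1 and 2 were below 0 and arrays 3 and 4 above it. This window was higher than both adjoining windows (-0.22 and -0.10) in all 4 arrays. In the first stretch, however, it averaged -0.19, below the next window at 0.08. In the end window the first stretch averaged 0.39 ± 0.23, the middle 0.29 ± 0.15 and the last -0.01 ± 0.08.

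The files give each probe a count, read here as its number of matches in the genome, and 103 of the 1192 member probes (8.64%) had a count of 2 or more, against 6.33% of all probes. They lay in 31 of the 55 regions, and 73 of the 103 started at least 2100 bp from the region start. These were 28 of 29 in the first, 17 of 32 in the middle and 28 of 42 in the last stretch. These probes averaged 0.40, 0.18, 0.41 and 0.26 in the 4 arrays, a mean of 0.31 ± 0.11, whereas the 1089 single-match probes averaged -0.17, -0.37, 0.13 and -0.09, a mean of -0.13 ± 0.21. Multi-match probes were higher than single-match probes in every array. Over all probes the means were 0.29 ± 0.09 and -0.009 ± 0.016. The difference was large in the first stretch (0.66 ± 0.21 for multi-match and -0.16 ± 0.26 for single-match probes) and smaller in the last (-0.03 ± 0.08 and -0.18 ± 0.14).

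**Figure D5:**
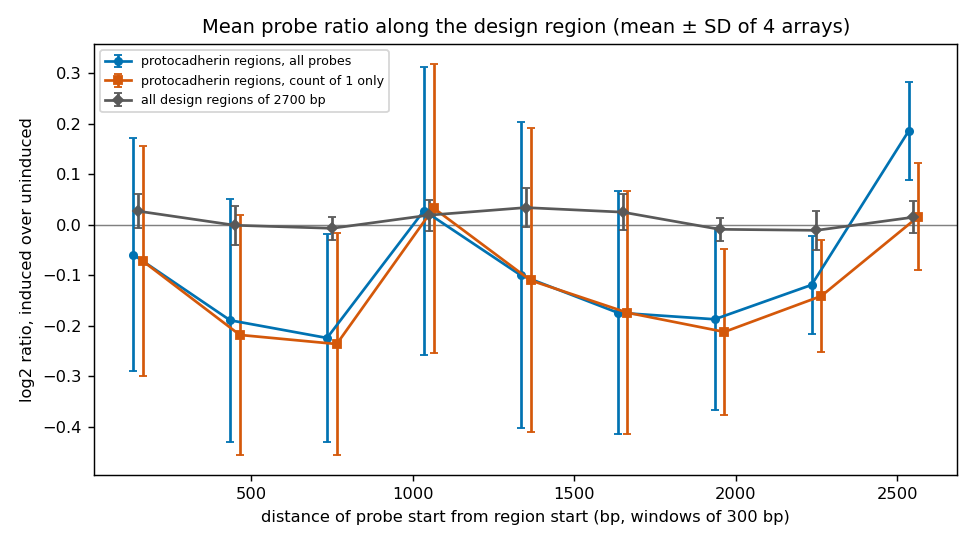
Mean log2 ratio (vertical axis, with the SD of 4 arrays as bars) of probes in windows of 300 bp from the start of the design region (horizontal axis, bp), for the protocadherin regions with all probes, the same with probes of count 1 only, and all design regions of 2700 bp. The level in the end window is 0.19 with all probes and 0.02 with single-match probes, and in both it is above that of the window before it (-0.12 and -0.14).

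With single-match probes alone, the end window stood at 0.02 ± 0.11 instead of 0.19, and the window before it at -0.14 ± 0.11. The end window was the higher of the pair in all 4 arrays, at 0.02, -0.11, 0.15 and 0.003 against -0.13, -0.29, -0.02 and -0.12. By stretch it stood at -0.03 ± 0.22, 0.19 ± 0.14 and -0.07 ± 0.09 in the first, middle and last stretch. All 55 regions kept at least 12 such probes. Their medians were -0.20, -0.38, 0.12 and -0.16 in the 4 arrays, with 4 regions called higher and 13 lower (background 11.2 and 14.4%). The 4 higher regions and 11 of the 12 lower regions were the ones called with all probes. Region 42 was lost, and regions 24 and 45 were added. Region 24, at 140538963 to 140541663, moved from -0.19 with 20 probes to -0.47 ± 0.32 with 13 single-match probes (adjusted p = 0.0099, limma), and region 45 from -0.23 to -0.33 ± 0.17 (adjusted p = 0.014, limma). Region 5 moved from -0.41 with 18 probes to -0.61 ± 0.30 with 15 (adjusted p = 0.0033, limma). It then stood below regions 47 (-0.57 ± 0.26) and 43 (-0.54 ± 0.17), the 2 lowest with all probes.

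Of the 1192 member probes, 337 (28.3%) were below 0 in all 4 arrays and 211 (17.7%) were above 0 in all 4, against 23.6 and 21.9% of all probes. For whole regions the shares were 14 of 55 below (background 24.2%) and 5 of 55 above (background 20.6%).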

How the data were processed

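Anti-HA precipitated DNA of induced and uninduced stable HEK293 cells was compared on 4 two-colour promoter arrays. Per the labels' protocols, cells were fixed with 1% formaldehyde for 10 min and chromatin was sheared to an average of 500 bp. The authors deposited 1 log2 ratio per probe (635 nm over 532 nm), written by NimbleScan per the file headers, and the headers list a biweight mean of -1.05 to -0.586. The deposited values have medians of -0.01 to 0. The logarithm base was taken as 2. Not given in the sources used here: program version, background correction, genome build.

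Each array was centred on its probe median. Means over the probes of a design region (at least 5 probes), or of consecutive 500 bp bins from its first probe (at least 3), were tested against 0 in R 4.3.3 by the moderated two-sided test of limma 3.58.1 on an intercept, with Benjamini-Hochberg adjustment over all regions or bins. Between 0.555 and 0.731% of probe values were equal in any pair of arrays, so no file repeats another. Simulated data held 200 changed features. Their spread was made from the deviations of the arrays from each feature's own mean. A simulated mean therefore equals the set change exactly, without sampling error, and the recovered numbers are no estimate of power. Among 18008 regions the test recovered 80 of 100 at a change of 0.5 log2 and 100 of 100 at 1 log2. Among 77324 bins it recovered 0 and 88 of 100. In the data far more features were called (2473 regions and 13138 bins higher alone), which loosens the adjustment. The simulated rates therefore do not give what the test finds in the data, where member bins of less than 0.5 log2 in size were called. Named are the 5 highest and 5 lowest members, and the 3 highest and 3 lowest bins (1 per region), with the same sign in all arrays. Regions 12, 24, 42 and 45 and the other lower members stand outside that choice and are named with their values known. The members and lists were chosen with earlier results of these data known. Alternatives were other centring, scaling, summaries, moderation, probe sets, bins and flanks, and fewer arrays. Regulator genes of the clusters were not analysed here, since the files pair no gene names with regions. The tagged factor's identity is not reported here.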

Additional observations from a re-analysis of the deposited data

Results flagged for a closer look

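Of 21 values checked over the 4 arrays by Dixon's ratio, 1 passed the 95% critical value, and chance passes about 1 in 20. The median of the neighbouring design regions within 5 Mb was 0.064 in array 1 and between -0.009 and -0.001 in the other arrays. It enters the difference between the protocadherin regions and their neighbours in array 1 only.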

How the results depend on the processing

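The counts of called regions were the results that moved. Array weights gave 20 members lower (3659 of all regions lower). A minimum change of 0.5 log2 left 0 members higher and 2 lower (457 and 161 of all). Series N39 alone gave 2 higher and 22 lower members, 1595 of all regions lower and 18 member bins higher. Series N44 alone gave 3 members lower, 1278 of all regions lower and 20 member bins lower. Bins of 1000 bp gave 23 higher and 40 lower of 162. With 1 array left out, members called higher numbered 1 to 5 and lower 4 to 24, all regions 1117 to 2618 higher and 799 to 2592 lower, and member bins 21 to 39 higher and 40 to 82 lower. The member median was then -0.205 to -0.036 and the difference from the neighbours -0.225 to -0.054. The cause was not tested where neither the number of arrays nor that of bins changed. No named region or bin changed direction; the rule of 1 sign in all arrays fixes this when arrays are left out. Of 170 values of named regions, 18 lost a call and 1 gained one, and of 98 values of named bins 3 lost it; at a minimum of 4 probes a bin, 4 had no value. The single-series values of the difference from the neighbours were chosen after seeing the data. No paired analysis was possible because the arrays form a single group, in which each array already sets induced against uninduced cells. Background intensities were not analysed here, so signal over background sets no stated limit.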
